A study of Rattus norvegicus with 12 samples.

Results

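The lungs of rats exposed to cigarette smoke (CS) and lipopolysaccharide (LPS) were compared with those of control rats, 3 arrays against 3, that is 6 of the 12 arrays of the series. They were chosen by the treatment label alone, so no measured value decided which arrays entered. All animals were male Sprague-Dawley rats aged 8 to 12 weeks. In the CS + LPS group, smoke was given until day 30 in 2 sessions of 1.5 h per day, and LPS (500 μg/ml, a volume of 200 μl) was instilled into the trachea on days 5 and 19, when no smoke was given. Control rats breathed air and received saline. The left upper lobe was collected 24 h after exposure ended. RNA of whole tissue was measured, so fewer cells of a type and less RNA per cell cannot be told apart. The other 6 arrays came from rats with the same exposure that also received NaHS or PPG, and entered the filter on dim probes and the estimate of the spread.

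Smoke carries ligands of the aryl hydrocarbon receptor, a transcription factor that turns on detoxifying enzymes together with its own repressor, Ahrr. LPS, a component of the wall of Gram-negative bacteria, acts through TLR4 and NF-kB on macrophages and epithelium, which then release chemokines that draw in neutrophils and monocytes. In the airways of smokers macrophages gather and release elastases such as Mmp12, which degrade the elastic fibres of the alveolar wall.

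The 3 CS + LPS lungs held more transcript of a small set of macrophage, neutrophil and chemokine genes than the control lungs, led by Fcnb, Trem2, Cxcl3 and the smoke-response gene Ahrr, and less of Fmo2, Calca, Igfbp3 and Jun. Of these, Fcnb, Fmo2 and Jun missed an adjusted p of 0.05 when control replicate 3 was left out. Most chemokine and neutrophil genes tested were not called. Values are log2 signals after scaling, and differences are CS + LPS minus control with the standard error (SE) of the model. Of 21239 probes tested, 428 differed at an adjusted p under 0.05 (2.02%), 173 of them higher and 255 lower. The fold rule takes the thresholds of the study's methods, an unadjusted p under 0.05 together with a change of 2-fold or more. With the p of limma it called 969 probes (4.56%), 351 higher and 618 lower. With the t-test of the methods in place of limma it called 443 probes, 191 higher and 252 lower. The paper itself reports more genes higher than lower for this comparison. With 1 probe for each of 11330 genes, 125 genes were higher (1.1%) and 150 lower (1.32%) by adjusted p, and 231 were higher (2.04%) and 294 lower (2.59%) by the fold rule. The values of the groups did not overlap for 1526 genes that were higher (13.5%) and for 1343 that were lower (11.9%). A positive difference was found in 5675 of the 11330 genes, a negative one in 5655, and an unadjusted p under 0.05 in limma in 2824. These shares are the background for the counts of the gene lists below.

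These calls rest on the spread shared with the other 2 groups. A fit of the 6 arrays alone left 3 probes with an adjusted p under 0.05, 1 of Cxcl3, 1 of RT1-Bb and 1 without a gene symbol, and 2920 probes with an unadjusted p under 0.05. The methods' t-test left 1 after adjustment. Leaving out CS + LPS replicate 3 gave 29 probes by adjusted p, leaving out CS + LPS replicate 2 gave 221, and leaving out control replicate 2 gave 1296. By the fold rule, 1503 probes passed without control replicate 1, 1790 without control replicate 2 and 612 without control replicate 3. Quantile normalization turned the split by adjusted p from 40.4% higher to 61.0% higher among 205 probes, and the split by the fold rule from 36.2% to 61.6% higher.

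One control array stood apart. Controls 1 and 2 were hybridized on slide 1, and control 3 on slide 2 with the 3 CS + LPS arrays. The recorded scan also differed between the slides, so slide and scan cannot be told apart. Control 3 had the lowest 75th percentile of signal, 1229 against 2110 to 3261 on the other 5 arrays. It correlated with those 5 arrays at r = 0.936 to 0.956 over probes, whereas these 5 correlated with each other at 0.977 to 0.990. Transcripts of heart muscle, fat and airway epithelium were higher on it than on the other controls. The cardiac myosin gene Myh6 read 3.42 and 4.09 on controls 1 and 2, 14.78 on control 3, and 13.23, 10.37 and 9.39 on CS + LPS arrays 1 to 3. Heart muscle transcripts were therefore high on every array of slide 2, while the mean log2 level of the 13 heart genes tested was 6.76 and 6.74 on the controls of slide 1.

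Ucp1, the uncoupling protein of brown fat, read 13.24 on control 3 and 4.46 to 5.13 on the other 5 arrays. The mean over 10 fat genes was 11.35 on control 3 and 7.14 to 8.10 on the others. Foxj1, the transcription factor of ciliated cells, read 13.43 on control 3 and 10.99 to 11.76 on the others, and the mean of 13 motile cilia genes was 11.51 against 9.92 to 10.55. The 17 T cell genes ran the other way, with a mean of 8.21 on control 3 and 9.06 to 9.79 on the others. The part of these tissues in the results below was not tested. For the genes that the results turn on, the controls are therefore shown one by one.

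**Figure D1:**
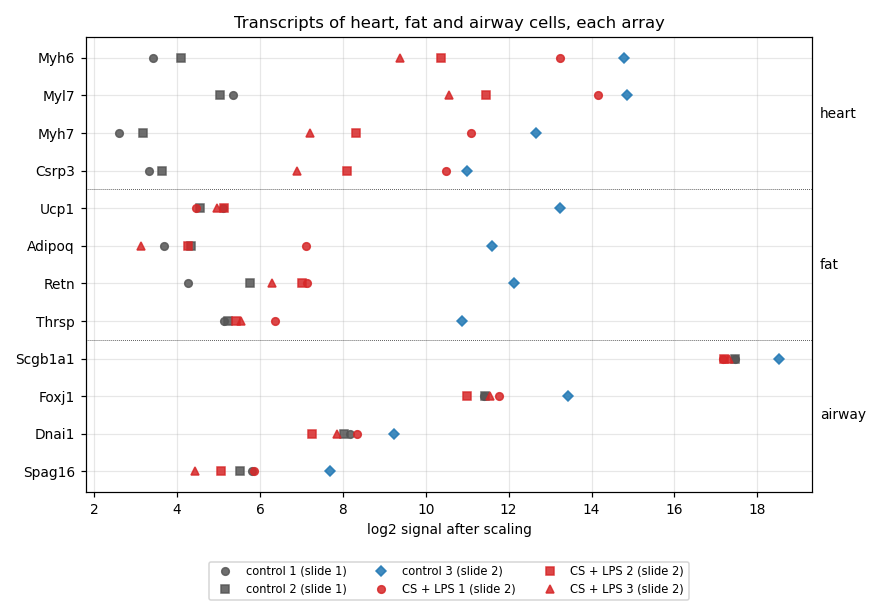
Log2 signal after scaling (horizontal axis) of 12 transcripts of heart, fat and airway epithelium on each of the 6 arrays. Control 3 (blue diamonds) lies above the other controls in all 12 rows, and Myh6, Myl7, Myh7 and Csrp3 are also high on the 3 CS + LPS arrays.

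Without control 3, 292 probes had an adjusted p under 0.05, of which 207 were among the 428. All 428 moved the same way against controls 1 and 2 as against control 3, a property that the small spread needed for a call favours. With slide as a block, which here equals setting CS + LPS against control 3 alone, 416 of the 428 kept the call, but 8830 probes were then called, so this fit calls many differences of the single array. Over all 11330 genes the median difference was 0.00, against 0.01 without control 3 and 0.02 against control 3 alone.

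**Figure D2:**
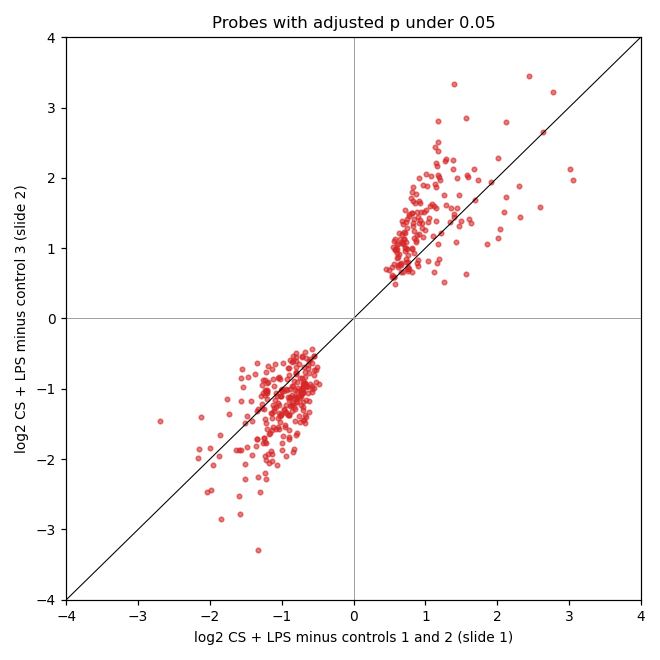
Each point is 1 of the 428 probes with an adjusted p under 0.05, with its log2 difference from controls 1 and 2 (horizontal axis) and from control 3 (vertical axis), and the diagonal marks equal values. All points have the same sign on both axes, and 3 lie outside the range shown.

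Among called probes with a gene symbol, no overlap between the groups and signal well above background on all 6 arrays, the largest rise was that of Fcnb, ficolin B, a lectin that neutrophils and monocytes carry and that starts complement activation. Its values were 8.52, 10.08 and 8.29 in controls 1 to 3 and 11.59, 10.61 and 13.02 in CS + LPS replicates 1 to 3, a difference of 2.78 (SE 0.60, adjusted p = 0.0452). The lowest CS + LPS value lay just above the highest control, and the spread within both groups was wide. Without control 3 the difference was 2.44 and the adjusted p 0.0939. A probe without a gene symbol rose further, by 3.09 (SE 0.69, adjusted p = 0.0483), from 8.71, 8.21 and 6.19 to 11.24, 10.67 and 10.47. The Fcnb probe lies at chr3:7011238-7011297 on the minus strand, in the coordinates of the authors' list. The array design names build rn4.

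Trem2, a lipid receptor of macrophages, had the firmest rise. It read 10.60, 10.83 and 11.13 in controls and 12.59, 13.17 and 13.27 in CS + LPS lungs, a difference of 2.16 (SE 0.23, adjusted p = 0.00673, 4.47-fold). The mean of the CS + LPS arrays, all on slide 2, lay 2.30 above controls 1 and 2 (slide 1) and 1.88 above control 3 (slide 2). The probe lies at chr9:8059065-8059124. Together with Hk3, Lrrn4cl, Pgbd5, Arid3a and Tmprss6, Trem2 was 1 of 6 named probes, of 56 with an adjusted p under 0.05, that stayed under it whichever of the 6 arrays was left out. Of all 428 probes, 28 did so.

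Hk3, the hexokinase of myeloid cells, read 8.53, 8.11 and 7.86 in controls and 9.85, 9.70 and 10.18 in CS + LPS lungs, a difference of 1.74 (SE 0.19, adjusted p = 0.00673). Fabp5, a carrier of fatty acids found in macrophages and epithelium, rose by 1.57 (SE 0.28, adjusted p = 0.0289), from 14.54, 14.95 and 13.54 to 15.88, 15.85 and 16.01. Naaa, a lysosomal enzyme that hydrolyses fatty acid ethanolamides, rose by the same 1.57 (SE 0.33, adjusted p = 0.0419), from 12.18, 11.97 and 10.78 to 13.07, 13.14 and 13.42. In Fabp5 and Naaa control 3 was the lowest array, and their differences without it were 1.17 and 1.14, with adjusted p = 0.0118 and 0.039.

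Aoc1, a copper-dependent enzyme that oxidizes diamines such as histamine and putrescine, rose by 1.63 (SE 0.36, adjusted p = 0.0494). It read 9.45, 10.92 and 9.62 in controls and 11.48 to 11.82 in CS + LPS lungs, and without control 3 the adjusted p was 0.10. Igsf7 l1 rose by 1.62 (SE 0.30, adjusted p = 0.0313), from 11.67, 11.85 and 10.43 to 12.79, 13.06 and 12.97. Lrrn4cl rose by 1.56 (SE 0.18, adjusted p = 0.00673), from 6.40, 6.27 and 6.04 to 7.55, 7.82 and 8.02. The olfactory receptor Or1f26 rose by 2.00 (SE 0.41, adjusted p = 0.041), from 8.96, 9.67 and 8.03 to 10.55, 10.49 and 11.61. Ube1y1, a Y-linked ubiquitin-activating enzyme, rose by 1.90 (SE 0.32, adjusted p = 0.0233), from 6.49, 7.22 and 7.42 to 9.31, 8.59 and 8.93, in animals that were all labelled male.

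**Figure D3:**
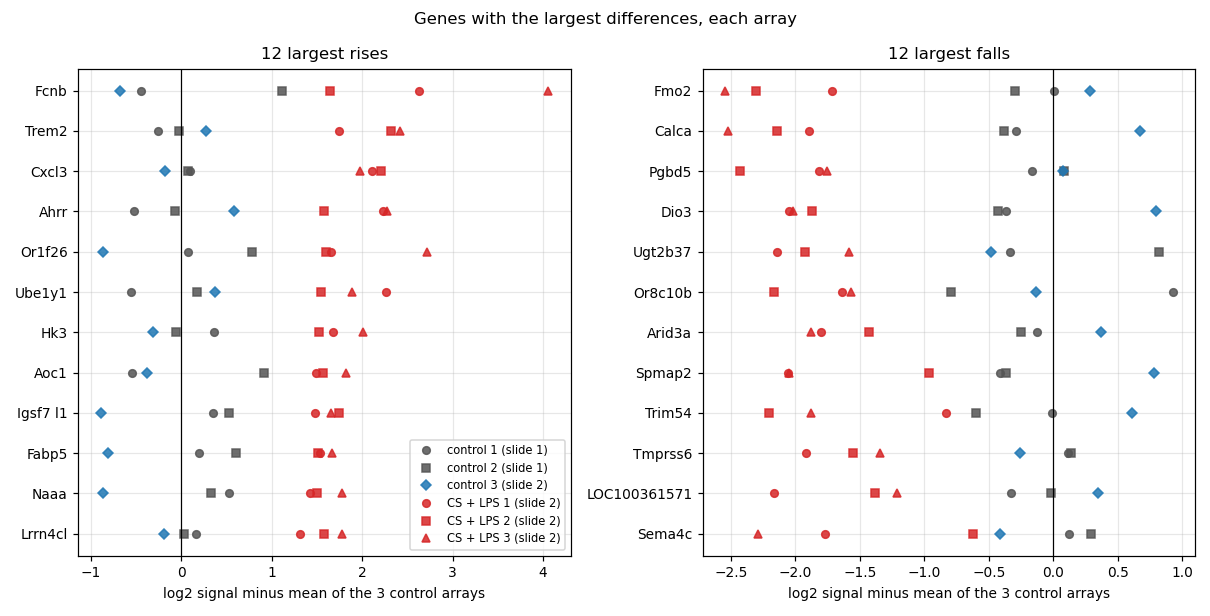
Log2 signal of each array minus the mean of the 3 controls (horizontal axis) for the 12 genes with the largest rises and the 12 with the largest falls. By the rule that chose the genes, red (CS + LPS) and control symbols overlap in none of the 24 rows. The distance between them is short for Fcnb, Trim54 and Sema4c.

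Among chemokines and their receptors, Cxcl3 stood out. Cxcl3 is a ligand of Cxcr2 that attracts neutrophils. It read 13.81, 13.79 and 13.54 in controls and 15.83, 15.93 and 15.70 in CS + LPS lungs, a difference of 2.10 or 4.30-fold (SE 0.31, adjusted p = 0.0157). The 3 values of each group lay close together, and Cxcl3 was the named chemokine probe that kept its call with the 6 arrays alone (adjusted p = 0.044). Its probe lies at chr14:18767637-18767696. Cxcl1 and Cxcl2, relatives that use the same receptor, differed by 0.36 (SE 0.26, adjusted p = 0.389) and 0.23 (SE 0.31, adjusted p = 0.642), and Cxcr2 itself by 0.19 (SE 0.27, adjusted p = 0.653).

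Of 18 CXC chemokines and receptors tested, 1 was higher by adjusted p and 3 by the fold rule, beside 1.1% and 2.04% of all genes. None was lower, and the median difference was 0.42 (0.21 with normexp background correction). Cxcr1, the other receptor for neutrophil-attracting chemokines, read 10.13, 9.74 and 8.48 in controls and 10.96, 11.13 and 10.86 in CS + LPS lungs. Its difference of 1.54 (SE 0.35) missed the threshold at an adjusted p = 0.0502, and without control 3, the lowest array, it was 1.05 with an adjusted p = 0.0381.

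Of 23 CC chemokines and receptors, 1 was higher by adjusted p and 6 by the fold rule, and 8 did not overlap upward. The shares over all genes were 1.1%, 2.04% and 13.5%. Their median was 0.67, 0.53 without control 3 and 0.35 with normexp. Ccr2, the receptor that brings monocytes from the blood, rose by 1.16 (SE 0.25, adjusted p = 0.0448), from 6.75, 6.28 and 5.98 to 7.22, 7.38 and 7.89, with an adjusted p of 0.0831 without control 3. Its ligands Ccl2 and Ccl7 had differences of 1.33 (SE 0.51, adjusted p = 0.146) and 1.39 (SE 0.68, adjusted p = 0.222), and every CS + LPS array lay above every control. Ccl9 had 1.27 (SE 0.29, adjusted p = 0.0506). Ccr3, the eotaxin receptor of eosinophils, was well above background on the 3 CS + LPS arrays and on no control, at least 2.71-fold higher by the bound set by the dimmest detected probes, with an adjusted p = 0.104.

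**Figure D4:**
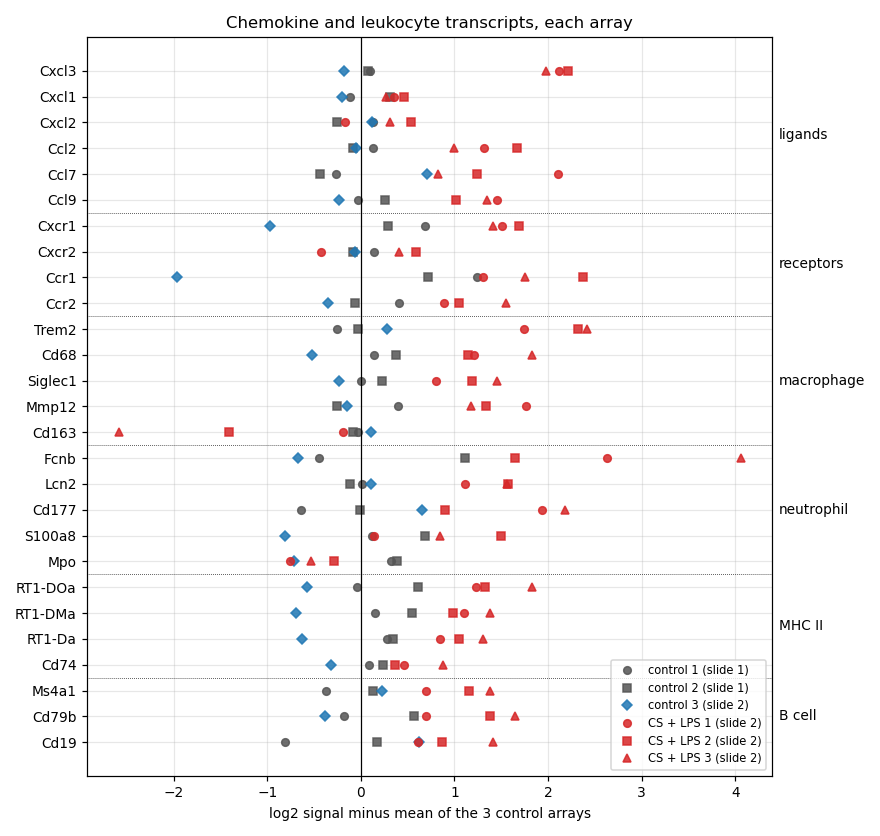
Log2 signal of each array minus the mean of the 3 controls (horizontal axis) for 27 transcripts of chemokine ligands, receptors and leukocytes. Cxcl3, Trem2, Lcn2 and Siglec1 lie higher on every CS + LPS array than on any control of either slide, and Cxcl1, Cxcl2 and Cxcr2 do not. Control 3 (blue diamonds) is the lowest array for Ccr1, Cxcr1, Cd68 and the MHC class II genes.

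Macrophage transcripts had a median difference of 0.95 over 20 genes tested (0.82 without control 3, 1.36 against it), beside 0.00 for all genes. By adjusted p, 4 were higher and none lower, beside 1.1% and 1.32% of all genes. By the fold rule 8 were higher and 1 lower, beside 2.04% and 2.59%. Cd68, a lysosomal protein of macrophages, rose by 1.39 (SE 0.26, adjusted p = 0.0301), from 12.46, 12.69 and 11.80 to 13.53, 13.45 and 14.14. Siglec1, a sialic acid receptor of tissue macrophages, rose by 1.15 (SE 0.23, adjusted p = 0.0392), from 8.79, 9.01 and 8.56 to 9.60, 9.98 and 10.25. Mmp12, the macrophage elastase, rose by 1.43 or 2.69-fold (SE 0.31, adjusted p = 0.0455), from 6.79, 6.13 and 6.25 to 8.16, 7.73 and 7.57. Siglec1 and Mmp12 missed the threshold without control 3 (adjusted p = 0.075 and 0.0855), while Trem2 and Cd68 kept it.

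Not every macrophage gene was higher. Cd163, the haemoglobin scavenger receptor, read 8.96, 8.90 and 9.10 in controls and 8.80, 7.58 and 6.40 in CS + LPS lungs, a difference of -1.39 (SE 0.56, adjusted p = 0.162) that came from replicates 2 and 3. Retnla, a secreted product of alternatively activated macrophages, had a difference of 2.47 (SE 0.63, adjusted p = 0.0694), with 12.14, 12.18 and 10.68 in controls and 14.55, 13.53 and 14.34 in CS + LPS lungs. Arg1, the arginase of the same state, had 1.13 (SE 0.32, adjusted p = 0.0833).

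The median over 16 neutrophil transcripts was 0.85, but 0.32 with normexp, where the median of all genes was -0.08. Of the 16, 2 were higher by adjusted p and none lower, beside 1.1% and 1.32% of all genes. Besides Fcnb this was Lcn2, lipocalin 2, which binds bacterial siderophores and is made by neutrophils and by airway epithelium. Lcn2 read 12.33, 12.21 and 12.43 in controls and 13.44, 13.90 and 13.89 in CS + LPS lungs, a difference of 1.42 or 2.67-fold (SE 0.20, adjusted p = 0.0144), and 1.47 without control 3. Cd177, a neutrophil surface antigen, had 1.67 (SE 0.42, adjusted p = 0.0658). The calprotectin subunits S100a8 and S100a9 overlapped between groups, at 0.83 (SE 0.47, adjusted p = 0.279) and 0.85 (SE 0.40, adjusted p = 0.213). Mpo, the peroxidase of neutrophil granules, read 5.61, 5.68 and 4.58 in controls and 4.54, 5.01 and 4.77 in CS + LPS lungs (-0.52, SE 0.28, adjusted p = 0.258).

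MHC class II genes, which present peptides to helper T cells, had a median of 0.74 over 10 genes tested. Of these 10, 7 did not overlap upward and 2 were higher by adjusted p, beside 13.5% and 1.1% of all genes. RT1-DOa rose by 1.46 (SE 0.27, adjusted p = 0.0312), from between 5.47 (control 3) and 6.66 (control 2) to 7.27, 7.37 and 7.87. RT1-DMa had 1.15 (SE 0.26, adjusted p = 0.0513), RT1-Da 1.06 (SE 0.25, adjusted p = 0.0568) and the invariant chain Cd74 0.57 (SE 0.18, adjusted p = 0.0994). Control 3 was the lowest array for these 4 genes.

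The 2 probes for RT1-Bb, the beta chain of a class II molecule, were called in opposite directions. The more intense one, at chr20:4732187-4732246, read 13.79, 13.93 and 13.29 in controls and 14.58, 14.72 and 15.09 in CS + LPS lungs, a rise of 1.13 (SE 0.22, adjusted p = 0.0329). The other, at chr20:4730533-4730583, read 13.77, 14.20 and 13.73 in controls and 2.65, 2.79 and 3.12 in CS + LPS lungs, where it was not well above background, so it was at least 1304-fold lower (adjusted p = 0.047). In the rats given NaHS this probe read 2.85, 6.44 and 2.31, and in those given PPG 14.33, 14.20 and 2.96. It was thus either as high as in controls or at most 6.44 on each of the 12 arrays, and single exposed rats lay on either side.

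Tap2, the peptide transporter encoded in the same complex, also split within the exposed group. It read 12.74, 13.07 and 13.72 in controls, 13.12 in CS + LPS replicate 2, and 10.28 and 10.82 in replicates 1 and 3, a difference of -1.77 (SE 0.58, adjusted p = 0.11). MHC class I and processing genes as a whole had a median of 0.33 over 14 genes (0.13 without control 3). By adjusted p in limma none was called, and 5 had an unadjusted p under 0.05, beside 2824 of all 11330 genes.

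B cell and plasma cell transcripts had a median of 0.96 over 13 genes tested, and 0.55 with normexp. Of the 13, 12 were positive, 6 were higher by the fold rule and 1 by adjusted p. Over all genes, 2.04% were higher by the fold rule and 1.1% by adjusted p. The called gene was Ms4a1, which encodes CD20, with 6.49 to 7.09 in controls and 7.55, 8.01 and 8.24 in CS + LPS lungs, a rise of 1.07 (SE 0.23, adjusted p = 0.045, and 0.053 without control 3). Cd79b, a signalling chain of the B cell receptor, had 1.24 (SE 0.29, adjusted p = 0.0555). For 17 T cell genes the median was 0.53, but 0.14 without control 3, 1.54 against it and 0.25 with normexp. None was called by adjusted p in limma, and 7 had an unadjusted p under 0.05, beside 2824 of all 11330 genes.

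Mast cell genes had a median of 0.96 over 13 genes tested and were called in both directions. By the fold rule 6 were higher and 1 lower, beside 2.04% and 2.59% of all genes. The mean over the list was 9.57, 9.61 and 9.09 in controls and 10.88, 9.74 and 9.18 in CS + LPS lungs, highest on replicate 1. Cma1, a chymase, rose by 1.04 (SE 0.19, adjusted p = 0.0295), from 8.16, 8.35 and 8.62 to 9.70, 9.49 and 9.04. Gata2, a transcription factor of mast cells and endothelium, fell by 0.86 (SE 0.16, adjusted p = 0.0312), from 10.78, 10.60 and 10.33 to 9.84, 9.65 and 9.63. The proteases Mcpt1 and Cpa3 were highest on CS + LPS replicate 1, and Mcpt1 read 10.03, 9.24 and 8.36 in controls and 12.86, 10.37 and 10.02 in CS + LPS lungs. The tryptase Tpsab1 had a difference of -1.48 (SE 0.60, adjusted p = 0.163).

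Of 15 inflammatory cytokines and receptors, 2 were higher by adjusted p, beside 1.1% of all genes. Il1rn, the antagonist of the interleukin-1 receptor, rose by 1.09 (SE 0.22, adjusted p = 0.0375), from 11.90, 12.16 and 11.56 to 12.50, 13.23 and 13.16, and Il18 rose by 0.92 (SE 0.20, adjusted p = 0.0448), from 12.18, 11.92 and 11.51 to 12.76, 13.02 and 12.60. Both missed the threshold without control 3 (adjusted p = 0.0685 and 0.0739). Tnf, with 0.61 (SE 0.25, adjusted p = 0.171), and Il1b, with 0.53 (SE 0.28, adjusted p = 0.255), were not called. The lists for TLR4 with NF-kB feedback (15 genes, median 0.26) and interferon-stimulated genes (24 genes, median 0.09) held no gene called by adjusted p in limma. In them 4 and 5 genes had an unadjusted p under 0.05, beside 2824 of all 11330 genes.

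Sele, the E-selectin of inflamed endothelium on which leukocytes roll, was not well above background on any control (4.69, 5.01 and 4.61) and was on all 3 CS + LPS arrays (6.02, 7.17 and 6.55), at least 3.51-fold higher (adjusted p = 0.0247). Among 20 complement genes Cfp, properdin, which stabilizes the alternative pathway convertase, rose by 1.19 (SE 0.20, adjusted p = 0.0248), from 9.31, 9.56 and 8.90 to 10.11, 10.49 and 10.74. C6, a part of the membrane attack complex, had one of the largest differences without passing the test, 2.39 (SE 0.60, adjusted p = 0.0658), from 8.40, 9.39 and 8.71 to 11.98, 11.49 and 10.20. Cd55, which disarms complement on host cells, had -0.58 (SE 0.15, adjusted p = 0.0669).

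The list for the aryl hydrocarbon receptor holds its targets and also Ahr and Arnt, the receptor and its partner. Of 7 genes of this list tested, Ahrr was the one called. Ahrr, the repressor of the aryl hydrocarbon receptor and itself a target of it, read 5.59, 6.05 and 6.71 in controls and 8.35, 7.70 and 8.39 in CS + LPS lungs, a rise of 2.03 or 4.08-fold (SE 0.31, adjusted p = 0.016), and 2.32 without control 3. Its probe lies at chr1:29894853-29894912. The other 6 genes tested were not called. Cyp1a1, the classical target, read 9.73, 8.56 and 9.74 in controls and 8.97, 8.97 and 8.71 in CS + LPS lungs (-0.46, SE 0.35, adjusted p = 0.409), Cyp1b1 had -0.18 (SE 0.25, adjusted p = 0.659), and Nqo1 0.00 (SE 0.21, adjusted p = 0.999).

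The start regions of 3 genes that rose are given here because the factors that smoke and LPS engage are known to act on them: Ahrr as a target of the aryl hydrocarbon receptor, and Lcn2 and Sele as targets of NF-kB. They are the 250 bases before each gene's start in RefSeq, build GRCr8, 5′ to 3′. Capitals mark matches on either strand to GCGTG, the core letters bound by the aryl hydrocarbon receptor, to the 10-letter NF-kB consensus, and to TGANTCA for AP-1. None of the matches shown overlaps another.
Ahrr, chr1:30821969-30822218, plus strand: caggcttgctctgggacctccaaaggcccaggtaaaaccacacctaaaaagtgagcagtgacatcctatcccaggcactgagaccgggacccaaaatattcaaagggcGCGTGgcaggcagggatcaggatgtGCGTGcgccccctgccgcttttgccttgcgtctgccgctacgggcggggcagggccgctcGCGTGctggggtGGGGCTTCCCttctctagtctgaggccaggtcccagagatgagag
Lcn2, chr3:36081781-36082030, minus strand: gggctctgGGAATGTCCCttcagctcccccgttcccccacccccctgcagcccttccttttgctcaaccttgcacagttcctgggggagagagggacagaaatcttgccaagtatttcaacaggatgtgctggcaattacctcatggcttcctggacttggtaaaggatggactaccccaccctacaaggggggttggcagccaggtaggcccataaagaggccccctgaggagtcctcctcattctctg
Sele, chr13:78936264-78936513, plus strand: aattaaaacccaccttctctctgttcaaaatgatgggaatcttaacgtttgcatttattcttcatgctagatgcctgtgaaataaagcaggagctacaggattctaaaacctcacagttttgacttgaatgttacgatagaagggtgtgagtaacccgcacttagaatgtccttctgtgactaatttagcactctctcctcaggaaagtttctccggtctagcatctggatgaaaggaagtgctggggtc
Ahrr held 3 matches to GCGTG and 1 to the NF-kB consensus, Lcn2 held 1 to the NF-kB consensus, and Sele held no match. Of 27457 promoters of this length, 27.2% held GCGTG, 3.52% the NF-kB consensus and 6.36% TGANTCA. Among the 104 genes with a called rise and an entry in the table, 26 held GCGTG (25.0%), 7 the NF-kB consensus (6.73%) and 11 TGANTCA (10.6%). Among the 117 with a called fall, 36 held GCGTG (30.8%), 5 the NF-kB consensus (4.27%) and 7 TGANTCA (5.98%). These matches describe letters and were not tested.

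Of 21 antioxidant genes, 2 were higher by adjusted p and none lower, beside 1.1% and 1.32% of all genes. Prdx5, a peroxiredoxin of mitochondria and peroxisomes, rose by 1.12 (SE 0.20, adjusted p = 0.0289), from 14.42, 14.45 and 13.65 to 15.07, 15.45 and 15.38. Gpx1, the main glutathione peroxidase, rose by 0.74 (SE 0.16, adjusted p = 0.0427), from 15.74, 15.76 and 15.21 to 16.22, 16.40 and 16.32. Hmox1 had 0.50 (SE 0.18, adjusted p = 0.138) and Gclc -0.03 (SE 0.13, adjusted p = 0.904), both well-known targets of NRF2, and the list median was 0.10. Of 20 conjugation and aldehyde dehydrogenase genes, Gsto1, an omega-class glutathione transferase, rose by 1.06 (SE 0.16, adjusted p = 0.016), from 11.34, 11.36 and 10.90 to 12.18, 12.21 and 12.40. Ugt2b37, a glucuronosyltransferase, fell by 1.88 (SE 0.33, adjusted p = 0.0281), from 6.53, 7.68 and 6.38 to 4.72, 4.94 and 5.28. Aldh1a3, which makes retinoic acid, had 0.88 (SE 0.20, adjusted p = 0.0538).

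The enzymes that form or oxidize H2S, the gas that the treatments of the other groups address, held no gene called by adjusted p in limma among 8 tested. Of these 8, 2 had an unadjusted p under 0.05, beside 2824 of all 11330 genes. Cth read 7.69, 7.72 and 6.10 in controls and 7.96, 7.25 and 6.68 in CS + LPS lungs (0.12, SE 0.45, adjusted p = 0.872). Cbs read 8.39, 9.14 and 8.17 in controls and 8.05, 7.42 and 6.75 in CS + LPS lungs (-1.16, SE 0.43, adjusted p = 0.141), below all controls in each rat. Mpst had 0.09 (SE 0.25, adjusted p = 0.834). The list median was 0.11, and -0.19 without control 3.

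Under the same limits as for Fcnb, the largest fall was that of Fmo2, the flavin monooxygenase that is abundant in lung and oxidizes sulphur and nitrogen compounds. It read 15.82, 15.51 and 16.10 in controls and 14.10, 13.50 and 13.27 in CS + LPS lungs, a difference of -2.19 or 4.55-fold lower (SE 0.39, adjusted p = 0.0289), with no array near the other group. Without control 3 the difference was -2.04 and the adjusted p 0.0561. Its probe lies at chr13:78548022-78548081. A second Fmo2 probe had -1.51 (adjusted p = 0.071). Of the 13 cytochrome P450 genes outside family 1 that were listed and tested, none was called by adjusted p in limma, with a median of -0.43. An unadjusted p under 0.05 was found for 4 of them, beside 2824 of all 11330 genes. Outside this list, Cyp7b1, an oxysterol hydroxylase, rose by 0.84 (SE 0.15, adjusted p = 0.0289), and Cyp4a1, a fatty acid hydroxylase, fell by 1.13 (SE 0.25, adjusted p = 0.0455).

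Calca, which encodes calcitonin and the neuropeptide CGRP and is made in the lung by neuroendocrine cells and sensory nerves, fell by 2.18 (SE 0.37, adjusted p = 0.0233), from 8.58, 8.49 and 9.54 to 6.98, 6.73 and 6.35. A second probe was 2.83-fold lower (adjusted p = 0.0272). The other 7 calcitonin peptides and receptors tested were not called. Among them Adm, adrenomedullin, had -0.75 (SE 0.29, adjusted p = 0.15), and Ramp1, a subunit of the CGRP receptor, 0.54 (SE 0.19, adjusted p = 0.13).

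Pgbd5, a domesticated transposase, fell by 2.00 (SE 0.24, adjusted p = 0.00673), from 6.51, 6.76 and 6.76 to 4.86, 4.25 and 4.92. Arid3a, a DNA-binding protein, fell by 1.70 (SE 0.20, adjusted p = 0.00673), from 9.09, 8.96 and 9.59 to 7.41, 7.79 and 7.34. Tmprss6, a membrane serine protease that acts on the hepcidin pathway, fell by 1.60 (SE 0.17, adjusted p = 0.00673), from 7.93, 7.96 and 7.56 to 5.90, 6.27 and 6.47. Dio3, the deiodinase that inactivates thyroid hormone, fell by 1.98 (SE 0.40, adjusted p = 0.0384), from 5.49, 5.42 and 6.65 to 3.80, 3.98 and 3.83. Against control 3 alone these 4 had differences from -1.35 to -2.78. Their direction there was fixed in advance, since the limits allowed no overlap between the groups. The remaining 5 of the 12 largest falls under these limits, Or8c10b, Spmap2, Trim54, LOC100361571 and Sema4c, had differences of -1.79 to -1.56. Called falls of that size in probes that were not well above background on all 6 arrays included Polr1a at -2.14 (adjusted p = 0.0082), LOC685994 at -2.11, Slc45a2 at -2.05 and Ces1e at -1.90.

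Of the called genes well above background in only 1 group, only those with the largest differences are given here. Slc26a4, an anion exchanger of airway epithelium, was at least 5.55-fold higher in CS + LPS lungs (adjusted p = 0.0375), with 3.27, 4.07 and 4.75 in controls and 6.78, 6.40 and 7.01 in CS + LPS lungs. Slc13a3, a dicarboxylate transporter, was at least 4.60-fold higher (adjusted p = 0.0256), the nuclear receptor Nr5a2 at least 3.49-fold (adjusted p = 0.0247) and Pdzrn4 at least 2.47-fold (adjusted p = 0.0281). In the other direction LOC100361577 was at least 3.86-fold lower (adjusted p = 0.0121) and LOC363337 at least 3.69-fold lower (adjusted p = 0.0233).

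Immediate early and AP-1 genes, which cells switch on within minutes of a stimulus, had a median of -0.62 over 19 genes tested. Of these 19, 17 were negative, 7 did not overlap downward and 1 was called. Over all 11330 genes, 5655 were negative, 11.9% did not overlap downward and 1.32% were called lower. Jun, a subunit of AP-1, fell by 0.96 (SE 0.20, adjusted p = 0.0404), from 13.46, 13.04 and 13.48 to 12.35, 12.13 and 12.63, with an adjusted p of 0.0755 without control 3. Ier3 had -0.66 (SE 0.15, adjusted p = 0.0515), Maff -0.94 (SE 0.26, adjusted p = 0.0789), and Fos -0.74 (SE 0.31, adjusted p = 0.172). The median without control 3 was -0.48.

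Glucocorticoid receptor targets had a median of -0.37 over 15 genes with and without control 3, with 7 not overlapping downward, beside 11.9% of all genes. Fkbp5, a chaperone that feeds back on the receptor, read 13.93, 13.15 and 13.15 in controls and 12.80, 11.32 and 10.84 in CS + LPS lungs (-1.76, SE 0.44, adjusted p = 0.0666). Tsc22d3, known as GILZ, had -0.95 (SE 0.24, adjusted p = 0.0669) and Pdk4 -1.60 (SE 0.41, adjusted p = 0.0697). Zbtb16 had -3.67 (SE 1.03, adjusted p = 0.0833), with 9.48, 8.98 and 9.68 in controls and 8.31, 3.83 and 4.99 in CS + LPS lungs, so that replicate 1 lay close to the controls. None of these falls passed the test, and the only called gene of the list, Lcn2, was higher.

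Among clock genes Cry1, a repressor of the clock, fell by 1.18 (SE 0.25, adjusted p = 0.045), from 10.95, 10.97 and 10.82 to 10.08, 9.40 and 9.71. Nr1d1, a repressor of another arm of the clock, had 1.77 (SE 0.52, adjusted p = 0.0918), with 7.70, 8.11 and 9.53 in controls and 10.61, 9.65 and 10.40 in CS + LPS lungs. Without control 3 this was 2.31 with an adjusted p = 0.0493, and the adjusted p of Cry1 was 0.0691. The time of day of tissue collection is not given in the sources used here.

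Igfbp3, which binds insulin-like growth factors, fell by 1.19 or 2.29-fold (SE 0.17, adjusted p = 0.0155), from 13.38, 13.07 and 13.04 to 12.14, 12.09 and 11.68, and by 1.26 without control 3. The more intense probe of Igfbp2 had -1.13 (SE 0.28, adjusted p = 0.0669) and a second one fell by 1.17 (SE 0.25, adjusted p = 0.045), from between 11.36 and 12.50 in controls to at most 10.93 in CS + LPS lungs. Igf1 had 0.96 (SE 0.27, adjusted p = 0.0828). Itga6, the integrin chain that binds laminin, fell by 1.08 (SE 0.23, adjusted p = 0.0438), from 9.10, 8.82 and 9.81 to 8.05, 8.22 and 8.21, and was the single one of 15 integrin chains called by its most intense probe. The probes of its partner Itgb1 differed. The most intense one had 0.19 (SE 0.19, adjusted p = 0.53), and another fell by 1.14 (SE 0.24, adjusted p = 0.0427), from 12.45, 12.04 and 12.80 to 11.46, 11.60 and 10.80, with an adjusted p of 0.0788 without control 3. Bcl2l1, an inhibitor of apoptosis, fell by 0.79 (SE 0.17, adjusted p = 0.0466), from 14.95, 14.61 and 14.75 to 14.14, 13.60 and 14.19. Tek, the angiopoietin receptor of endothelium, fell by 0.77 (SE 0.16, adjusted p = 0.0392), from 10.28, 9.96 and 9.88 to 9.32, 9.34 and 9.14. The BK channel gene Kcnma1 had -1.25 (SE 0.30, adjusted p = 0.0576).

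The lists for structural cells of the lung held 2 called genes, Lamp3 and Tek. Alveolar type 2 genes had a median of 0.11 over 15 genes with Lamp3, a lysosomal membrane protein of lamellar bodies and of mature dendritic cells, the called one (0.81, SE 0.17, adjusted p = 0.045). Lamp3 read 13.63, 13.50 and 13.07 in controls and 14.24, 14.20 and 14.19 in CS + LPS lungs. Without control 3, the lowest control, its difference was 0.65 and it was not called. Type 1 genes had a median of -0.14 over 12 genes, with none called and 2 at an unadjusted p under 0.05, beside 2824 of all 11330 genes. Endothelial genes had -0.05 over 16, elastic fibre and collagen genes 0.24 over 21, smooth muscle genes -0.03 over 14 and epithelial junction genes -0.13 over 14. Motile cilia genes had -0.57, but -0.09 without control 3 and -1.41 against it, and airway secretory genes had -0.16, 0.14 and -0.98 in the same order, so their medians followed control 3.

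Prostanoid and leukotriene enzymes had a median of 0.35 over 16 genes (0.14 with normexp). Tbxas1, thromboxane synthase, rose by 0.91 (SE 0.17, adjusted p = 0.0312), from 11.72, 11.73 and 11.07 to 12.51, 12.43 and 12.31, and Hpgds, a prostaglandin D synthase of mast cells and macrophages, had 1.71 (SE 0.46, adjusted p = 0.0766). Ptgs2, the inducible cyclooxygenase, was well above background on 2 of the 6 arrays and had -0.01 (SE 0.71, adjusted p = 0.993). The mitochondrial respiratory chain had a positive difference in all 22 genes of its list, each tested by its most intense probe, with a median of 0.29. Of these 22, 14 did not overlap upward, none passed the test by adjusted p in limma, and 10 had an unadjusted p under 0.05. Over all 11330 genes, 5675 were positive, 13.5% did not overlap upward and 2824 had an unadjusted p under 0.05. Subunits outside the list were called in both directions, Ndufa11 higher by 0.76 (SE 0.15, adjusted p = 0.0375) and Uqcrq lower with -0.92 (SE 0.19, adjusted p = 0.0384). Chaperones had a median of -0.34 over 17 genes with 15 negative, and proliferation genes 0.29 over 17, with none called by adjusted p in limma and 3 and 2 at an unadjusted p under 0.05.

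Other lists held few calls or none. Of 16 metalloproteinases and inhibitors Mmp12 was the called one, with Timp3, an inhibitor bound to the matrix, at -1.32 (SE 0.36, adjusted p = 0.0783). Iron handling genes had a median of 0.20 over 16 with Lcn2 the called one, and leukocyte adhesion genes 0.47 over 12 (0.26 with normexp) with Sele the called one. Genes of skeletal muscle (median 0.12 over 9), pancreas (-0.27 over 6) and red blood cells and platelets (0.08 over 11) held none called by adjusted p in limma, and 0, 4 and 0 with an unadjusted p under 0.05. Over all 11330 genes, 2824 had an unadjusted p under 0.05.

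**Figure D5:**
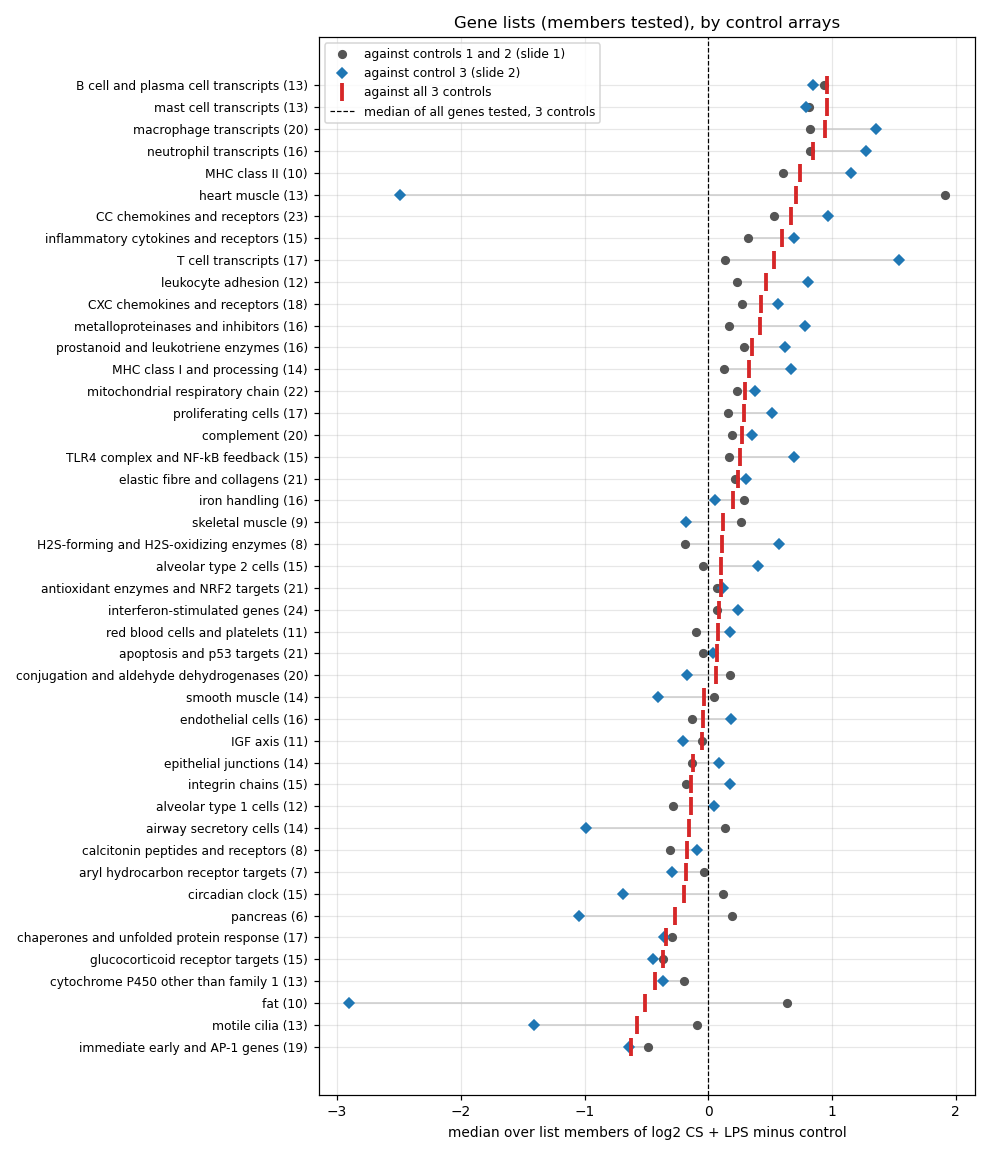
Median over the members of each of 45 gene lists of the log2 difference between CS + LPS and control (horizontal axis), against all 3 controls (red bars), controls 1 and 2 (grey circles) and control 3 alone (blue diamonds), with the number of members tested. The B cell, macrophage, neutrophil and MHC class II medians are above 0 against either set of controls, whereas heart muscle, fat, motile cilia and airway secretory medians change size or sign with the controls used.

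Among other genes that the study's text names for this comparison, Tnfrsf8 had 0.96 (SE 0.22, adjusted p = 0.053). Mnda, which the study lists under its older symbol Ifi204, had 1.02 (SE 0.39, adjusted p = 0.146). The study names Ppargc1a, Slc23a2 and Pdia3 for the NaHS group against CS + LPS, not for CS + LPS against control. Here Ppargc1a had -0.86 (SE 0.30, adjusted p = 0.128). Slc23a2 had -0.05 (SE 0.52, adjusted p = 0.96) and Pdia3 -0.31 (SE 0.30, adjusted p = 0.513), and the values of both genes overlapped between the groups.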

How the data were processed

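Lung RNA of 12 rats was hybridized to Agilent rat arrays in a single colour, 1 array per rat. The authors deposited Feature Extraction 10.7.3.1 output, in which the processed signal is a background-subtracted intensity. The files of control replicates 1 and 2 hold it rounded to 3 significant digits. The authors' lists of differing probes were used for symbols and positions only, and their fold changes, p-values and 120 columns of values for single arrays (60 signals, 60 flags) were not used.

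Signals were put on the log2 scale, outlier spots left out, spots of a probe averaged, and the 75th percentile of each array subtracted, with the mean percentile added back. Kept probes carried the Feature Extraction flag for signal well above background on every array of at least 1 of the 4 groups. In 21 of them a value was missing on 1 or more of the 6 arrays, none of them named here. Symbols came from RefSeq accessions (GRCr8 table, 17514 probes) or the authors' lists (194 probes), and 12659 probes had none. Each gene is represented by its most intense probe. limma 3.58.1 in R 4.3.3 was fitted to all 12 arrays, with Benjamini-Hochberg adjustment over 21239 probes, and tested on simulated data.

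Named genes were the 12 largest called rises and falls with a symbol, no overlap and signal above background on all 6 arrays, the members of 45 lists with the lowest p, the largest differences of probes above background in 1 group, genes named by the study and genes with opposite probes. The values of 1 gene under this rule are left out here. Other list members, second probes and genes outside the lists given with values were chosen after their values were seen. The members and lists were chosen with earlier results of these data known. Labels do not say more of replicates than that they are different rats, and the number of arrays limits the precision. Alternatives were other scalings, filters, blocks and tests, and leaving out each array.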

Additional observations from a re-analysis of the deposited data

How the results depend on the processing

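The 3 rats per group, the slide shared by CS + LPS and only 1 control, and the differing control array limit every comparison. By adjusted p (428 probes), quantile normalization gave 205, normexp background correction 880, no filter on dim probes 116, the 6 arrays alone 3, these with slide as a block 6021, slide as a block 8830, control replicate 3 alone 8830, the methods' t-test 1, and genes in place of probes 275. By the fold rule (969 probes) normexp gave 444, slide as a block 4831, control replicate 3 alone 4831, the 6 arrays with slide as a block 4753, no filter 2069, the t-test 443 and genes 525. Leaving out 1 array gave 29 to 1296 probes by adjusted p and 612 to 1790 by the fold rule. The replicate block gave 79 by adjusted p, but deviations of same-numbered arrays correlated at -0.18, 0.01 and -0.18, so the numbers were not taken as pairs. Normexp moved the median of all probes from -0.04 to -0.14. Of the 56 named probes with an adjusted p under 0.05, 33 kept it under quantile normalization, 35 without control replicate 3, 7 without CS + LPS replicate 3, 21 without CS + LPS replicate 2 and 2 with the 6 arrays alone. Of the 428 probes, 11 had the opposite direction with normexp, all well above background on 3 to 5 of the 6 arrays and none a gene described above. None did in the other settings, though 356 and 357 of them passed the filters for signal on all 12 and all 6 arrays. The causes were not tested.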
